A study of Mus musculus with 8 samples.

Results

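The lysosome and autophagy genes described here are 34 genes taken by their symbols from the gene table of an RNA-seq study, out of 18605 genes in that table. The table listed all 34. They encode 8 lysosomal peptidases, 7 glycosidases, 5 proteins of lipid handling or enzyme support, 6 membrane proteins, 3 parts of the proton pump, 2 transcription factors and 3 autophagy proteins. The study sequenced RNA from C3H10T1/2, a mouse mesenchymal stem cell line made from embryos of the C3H strain, in 4 groups of 2 libraries. NC cells carried a non-target control and KD-Nap1l2 cells an shRNA against *Nap1l2*, a histone chaperone gene, and both were taken without induction. NC-7d and KD-Nap1l2-7d were the same cell kinds after 7 days of osteogenic induction, in a medium with dexamethasone, ascorbic acid and β-glycerol phosphate. No group was kept for 7 days without induction, so the medium and the longer culture cannot be told apart. Nothing states that the libraries of a group came from separate cultures, so p-values measure the spread between these samples, which may be technical.

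Lysosomes are acidic compartments in which hydrolases break down proteins, sugars and lipids that arrive by endocytosis or autophagy. A proton pump of the V-ATPase family keeps them acidic, and membrane proteins such as the LAMPs line them. In autophagy a double membrane coated with LC3 and GABARAP proteins encloses cargo and then fuses with the lysosome. TFEB and TFE3 are related transcription factors that bind a short E-box element in the promoters of many lysosomal genes when they enter the nucleus. Lysosomal β-galactosidase activity is widely used as a stain for senescent cells, which makes this compartment of interest in a study of mesenchymal cell senescence.

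Because that E-box element is a shared feature of lysosomal promoters, the members' promoters are shown first. Promoter windows (250 bases before to 50 bases after the transcription start, RefSeq, GRCm38.p6) were found for 31 of the 34 genes. The letters GTCACGTG were searched on both strands, so that CACGTGAC counted too, and both forms contain the shorter palindrome CACGTG. They were found in 9 of the 31 windows, against 2.55% of the windows of 27025 genes, 4.53% of those of genes that entered the tests and 13.5% of those of a wider set of lysosome and autophagy genes. The element was first described in promoters of lysosomal genes, so its presence in this list is no independent result. The following lines show it with its surroundings for the genes in which it was found, in capitals, read along the gene's strand. *Ctsa*, *Ctsd* and *Mcoln1* held a further match, and 1 match is shown for each gene here. In *Cln3* the matches on both strands overlapped at 1 place, so they are not separate sites.
Atp6v0d1, chr8:105566050-105566081, minus strand: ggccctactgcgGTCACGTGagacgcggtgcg
Cln3, chr7:126583340-126583371, minus strand: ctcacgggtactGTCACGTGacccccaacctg
Ctsa, chr2:164833747-164833778, plus strand: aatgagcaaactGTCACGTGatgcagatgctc
Ctsd, chr7:142387906-142387937, minus strand: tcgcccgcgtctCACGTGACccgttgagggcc
Gla, chrX:134601182-134601213, minus strand: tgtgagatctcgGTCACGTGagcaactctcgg
Glb1, chr9:114401016-114401047, plus strand: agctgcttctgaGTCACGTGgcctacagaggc
Lamp1, chr8:13159121-13159152, plus strand: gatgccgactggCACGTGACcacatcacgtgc
Mcoln1, chr8:3500434-3500465, plus strand: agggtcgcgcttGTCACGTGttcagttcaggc
Naglu, chr11:101070007-101070038, plus strand: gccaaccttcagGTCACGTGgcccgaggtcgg

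The whole window of *Mcoln1*, which had the smallest adjusted p over the 7 days, is printed next with both of its matches in capitals, and that of *Gabarapl1*, which had the largest log2 fold change among the members called there, follows with no match to these letters. The absence of a match says only that the letters are not in this window.
Mcoln1, chr8:3500269-3500568, plus strand: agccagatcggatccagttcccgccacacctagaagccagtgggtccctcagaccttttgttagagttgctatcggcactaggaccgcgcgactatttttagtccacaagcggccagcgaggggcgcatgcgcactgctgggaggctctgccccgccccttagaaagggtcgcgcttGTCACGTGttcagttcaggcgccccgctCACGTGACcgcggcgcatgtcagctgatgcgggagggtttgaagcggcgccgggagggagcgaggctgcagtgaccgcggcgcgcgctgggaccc
Gabarapl1, chr6:129532942-129533241, plus strand: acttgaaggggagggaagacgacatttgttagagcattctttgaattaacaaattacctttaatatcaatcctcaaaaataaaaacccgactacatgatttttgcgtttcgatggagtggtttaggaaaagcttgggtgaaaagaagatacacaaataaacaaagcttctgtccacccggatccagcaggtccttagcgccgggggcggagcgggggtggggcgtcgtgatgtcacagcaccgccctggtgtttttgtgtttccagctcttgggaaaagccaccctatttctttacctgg

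The libraries held 17420284 to 19427359 estimated counts, and 13470 genes had enough counts to be tested. For *Nap1l2* itself the NC libraries held 3 and 3 counts, the KD-Nap1l2 libraries 2 and 7, NC-7d 15 and 5 and KD-Nap1l2-7d 7 and 13. Its level was therefore not lower in the libraries labelled KD-Nap1l2, and at this depth a lowering could not be detected, so every difference between the cell kinds below is a difference between libraries by their labels. The mesenchymal markers were high in all groups apart from *Nt5e*, with at most 3 counts, and *Thy1*, with 19 to 183, and had summed levels of 11883 to 28244 CPM (counts scaled by TMM to a common library size). The 10 macrophage markers in the table summed to 1.58 to 2.82 CPM. They ranged from *C1qa* and *C1qb*, with at most 2 counts in any library, to *Cx3cr1*, with 4 to 18, and *Csf1r*, with 5 to 21.

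Lysosomal transcripts were abundant in these cells. Of the 32 members that entered the tests, 14 had at least 100 FPKM (deposited values that allow for gene length and library size) in every library, against 3.85% of all genes tested. The highest levels were those of *Cd63*, a tetraspanin of late endosomes and exosomes, at 1072 to 1467 FPKM, and of *Psap*, the precursor of the saposins that help enzymes reach sphingolipids, at 709.1 to 1607 FPKM. *Cd63* was the higher of them in all 4 libraries at 0 days and *Psap* in all 4 at 7 days. *Ctsd*, an aspartic peptidase, had 509.0 to 1105 FPKM, *Ctsb*, a cysteine peptidase, 472.2 to 844.3 and *Lamp1* 441.8 to 780.5, so these 3 did not stand apart from each other either. At the other end, *Gla*, *Neu1* and *Tfeb* had means over the 8 libraries of 14.6, 12.8 and 8.43 FPKM. *Ctss*, the cathepsin of antigen-presenting cells, had at most 4 counts in any library and *Cln3* at most 10, and both were too low to be tested.

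**Figure D1:**
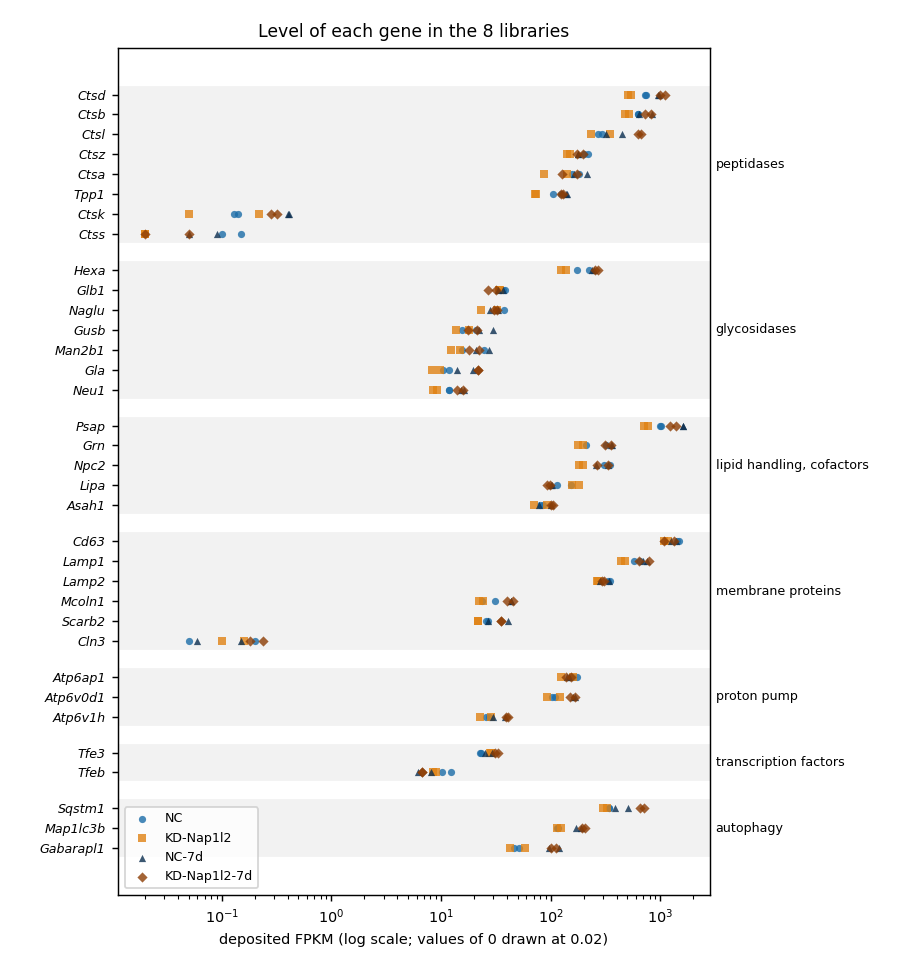
Deposited FPKM of the 34 genes in each of the 8 libraries on a log axis, with genes grouped by role and 1 point for each library, coloured by group. Cd63 and Psap lie highest, and Ctss, Ctsk and Cln3 lie below 1 FPKM in every library.

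Together the 34 genes took 1.54% ± 0.0643 of all counts in NC and 1.20% ± 0.0181 in KD-Nap1l2 (SD, n = 2). After induction they took 1.87% ± 0.117 in NC-7d and 1.88% ± 0.142 in KD-Nap1l2-7d (SD, n = 2). The share was lowest in the KD-Nap1l2 libraries, intermediate in NC, and the 4 libraries at 7 days lay above all 4 at 0 days, with NC-7d and KD-Nap1l2-7d overlapping. In bulk RNA, fewer cells of a type and less RNA per cell cannot be told apart.

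Over 7 days of induction most of the lysosome and autophagy genes moved upwards. With both cell kinds together, 17 of the 32 members tested rose and 2 fell (edgeR quasi-likelihood test, Benjamini-Hochberg adjusted p under 0.05), where 12.8% of all genes tested rose and 12.7% fell. The members' median log2 fold change was 0.48, against -0.01 over all genes tested. The members were chosen with earlier results of these data known, so the excess is no independent result. In NC cells alone 5 of 32 rose and 0 fell, against backgrounds of 4.83% and 3.38%, with 10 members higher and 2 lower at an unadjusted p under 0.05 (12.9% and 11.6% of all genes) and 5 higher and 1 lower by DESeq2 (6.44% and 5.11%). In the cells labelled KD-Nap1l2, 15 rose and 1 fell, against 6.84% and 7.36%. The members' medians in these inductions were 0.30 and 0.65 on the log2 scale, against 0.00 and -0.01 over all genes.

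The 2 inductions share no libraries, but both were tested in the fit over all 8 libraries, which shares its estimate of the spread. The genes called in both were *Psap*, *Mcoln1*, *Atp6v0d1*, *Map1lc3b* and *Gabarapl1*, all higher at 7 days, which is 5 of 32 members where 3.26% of all genes were called higher in both. They made up 5 of the 5 genes called higher in NC and 5 of the 15 called higher in the cells labelled KD-Nap1l2. In 18 of 32 members both 7-day libraries exceeded both 0-day libraries in each cell kind, against 18.6% of all genes. In 13 all 4 libraries at 7 days exceeded all 4 at 0 days, against 14.1%, and in 2 all 4 lay below, against 12.3%. The count for NC was 0 without NC replicate 1 and without NC-7d replicate 1 and 1 without NC replicate 2 or without either KD-Nap1l2-7d library, and the count for the cells labelled KD-Nap1l2, both directions together, was 2 without KD-Nap1l2-7d replicate 1 (*Gla* and *Ctsd*) and 1 without replicate 2 (*Gla*), so that within a single cell kind *Gla* was the only member whose call held whichever library was left out. With both cell kinds together, 19 genes were called in all and 12 without KD-Nap1l2-7d replicate 2.

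**Figure D2:**
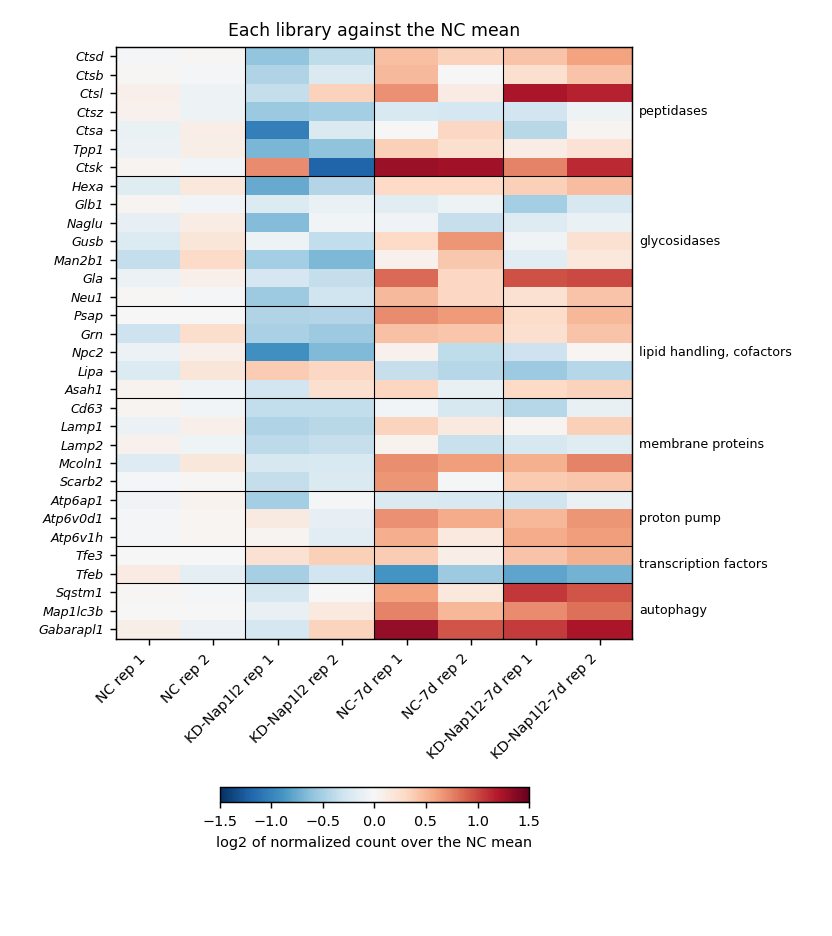
Log2 of each library's normalized count over the NC mean for the 32 genes tested, with genes in rows by role and libraries in columns. The 7-day columns are mostly red and the KD-Nap1l2 columns mostly blue. Lipa and Tfeb, called lower over the 7 days, lie below the NC mean in every 7-day column. So do Cd63, Ctsz, Glb1, Naglu and Atp6ap1, which were not called. Ctsk rests on 2 to 12 counts per library.

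Other values moved with the induction. Of the 12 mesenchymal markers tested 7 fell and 1 rose, and their summed level was 20258 to 28244 CPM at 0 days and 11883 to 15539 at 7 days. Of 14 cell cycle genes 5 fell and 0 rose in the edgeR test. Neither macrophage marker tested was called, and of the osteoclast markers only *Mmp9* was high enough to test, at 110 and 84 counts in the NC libraries, 55 and 63 in KD-Nap1l2 and 1 to 9 in the libraries at 7 days. The part of these in the members' changes was not tested.

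Of the 7 peptidases tested, 4 rose (*Ctsd*, *Tpp1*, *Ctsl* and *Ctsb*) and 0 fell with both cell kinds together. *Ctsb* was called in neither cell kind alone (edgeR adjusted p = 0.452 in NC and 0.0589 in the cells labelled KD-Nap1l2). *Ctsd* had levels of 1412 and 1441 CPM in NC and 1957 and 1814 in NC-7d, and of 947.3 and 1094 in KD-Nap1l2 and 1911 and 2175 in KD-Nap1l2-7d. All 4 libraries at 7 days lay above all 4 at 0 days, and the log2 fold change was 0.70 ± 0.11 (± is the standard error here and below, edgeR adjusted p = 0.00333), and the rise in the cells labelled KD-Nap1l2 was 2.00-fold. *Tpp1*, a peptidase that trims tripeptides from protein ends, had 378.7 and 426.5 CPM in NC, 249.6 and 266.0 in KD-Nap1l2, 517.2 and 475.9 in NC-7d and 436.4 and 466.2 in KD-Nap1l2-7d.
Its groups at 0 and 7 days did not overlap either, with a log2 fold change of 0.56 ± 0.09 (edgeR adjusted p = 0.00535). In NC alone neither *Ctsd* nor *Tpp1* was called (edgeR adjusted p = 0.148 and 0.208). *Ctsl*, a cysteine peptidase, had 495.3 and 445.1 CPM in NC, 753.2 and 513.1 in NC-7d, 366.1 and 596.9 in KD-Nap1l2 and 1096 and 1046 in KD-Nap1l2-7d. It rose 2.22-fold in the cells labelled KD-Nap1l2 (edgeR adjusted p = 0.0269), and its NC-7d libraries lay wide apart, 1 of them below a KD-Nap1l2 library. This call was lost without either NC library, KD-Nap1l2 replicate 1 or either KD-Nap1l2-7d library. *Ctsk*, the collagen-cleaving cathepsin of osteoclasts, was counted 5 and 5 times in NC, 8 and 2 in KD-Nap1l2, 11 and 12 in NC-7d and 8 and 10 in KD-Nap1l2-7d, and these counts are too few to read a change from (log2 fold change 1.06 ± 0.44, edgeR adjusted p = 0.114).

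Among the 7 glycosidases 3 rose, *Gla*, *Hexa* and *Neu1*, and 0 fell. *Gla*, the α-galactosidase that is deficient in Fabry disease, had 31.8 and 35.7 CPM in NC, 28.3 and 26.3 in KD-Nap1l2, 61.0 and 41.9 in NC-7d and 65.2 and 66.9 in KD-Nap1l2-7d. The 4 libraries at 7 days lay above the others, and the rise was 2.42-fold in the cells labelled KD-Nap1l2 (edgeR adjusted p = 0.00541) and 1.92-fold over both cell kinds (adjusted p = 0.00212). *Hexa*, a subunit of β-hexosaminidase, had 320.6 and 404.9 CPM in NC, 214.7 and 267.2 in KD-Nap1l2, 447.3 and 445.9 in NC-7d and 464.7 and 500.6 in KD-Nap1l2-7d, again with no overlap between 0 and 7 days (log2 fold change 0.65 ± 0.12, edgeR adjusted p = 0.00702). *Neu1*, a sialidase, had 46.5 and 45.6 CPM in NC, 31.5 and 37.5 in KD-Nap1l2, 64.6 and 57.2 in NC-7d and 53.9 and 61.9 in KD-Nap1l2-7d. Its log2 fold change was 0.58 ± 0.10 (edgeR adjusted p = 0.00553). None of these 3 genes was called in NC alone (edgeR adjusted p = 0.0812 for *Gla*, 0.314 for *Hexa* and 0.123 for *Neu1*).

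*Glb1*, whose product is the β-galactosidase behind the senescence stain, was not called by edgeR in any comparison. It had 93.7 and 88.5 CPM in NC, 79.2 and 84.9 in KD-Nap1l2, 81.6 and 86.2 in NC-7d and 64.0 and 77.3 in KD-Nap1l2-7d. The log2 fold change was -0.17 ± 0.09 over 7 days (edgeR adjusted p = 0.215), -0.15 ± 0.13 between KD-Nap1l2 and NC and -0.25 ± 0.13 between KD-Nap1l2-7d and NC-7d. The NC libraries lay above and the KD-Nap1l2-7d libraries below all others, and KD-Nap1l2 and NC-7d overlapped. *Gusb*, the β-glucuronidase, had 38.8 and 50.9 CPM in NC, 42.5 and 34.7 in KD-Nap1l2, 55.0 and 71.0 in NC-7d and 43.4 and 52.8 in KD-Nap1l2-7d. Its 7-day libraries lay above those at 0 days within each cell kind but overlapped with them across the cell kinds. The edgeR adjusted p over the 7 days was 0.0701.

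In the group of lipid handling and enzyme support, *Psap* and *Grn* rose and *Lipa* fell. *Psap* had 2580 and 2609 CPM in NC, 1895 and 1920 in KD-Nap1l2, 4254 and 4043 in NC-7d and 3143 and 3656 in KD-Nap1l2-7d. The groups were all separated, and the rises were 1.60-fold in NC (edgeR adjusted p = 0.0306) and 1.78-fold in the cells labelled KD-Nap1l2 (adjusted p = 0.0115). *Lipa*, the acid lipase that frees cholesterol and fatty acids, had 344.3 and 452.1 CPM in NC, 519.3 and 492.0 in KD-Nap1l2, 312.5 and 295.4 in NC-7d and 272.4 and 295.5 in KD-Nap1l2-7d. All 4 libraries at 7 days lay below all 4 at 0 days, and *Lipa* was the only member that fell in the cells labelled KD-Nap1l2 (log2 fold change -0.83 ± 0.16, edgeR adjusted p = 0.0154). *Npc2*, a cholesterol carrier of the lysosome lumen, had 1011 and 1133 CPM in NC, 567.7 and 677.2 in KD-Nap1l2, 1119 and 824.8 in NC-7d and 865.5 and 1097 in KD-Nap1l2-7d. Its 7-day libraries overlapped with NC while KD-Nap1l2 lay below them all, and none of its edgeR tests passed.

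Of the 5 membrane proteins tested, *Lamp1*, *Scarb2* and *Mcoln1* rose and 0 fell with both cell kinds together. *Lamp1* was not called in NC alone (edgeR adjusted p = 0.401). *Scarb2* was called in neither cell kind alone (edgeR adjusted p = 0.336 in NC and 0.0656 in the cells labelled KD-Nap1l2). For *Scarb2*, NC-7d replicate 2 lay below both NC libraries. *Mcoln1*, a calcium channel of the lysosomal membrane, had 48.1 and 61.6 CPM in NC, 46.4 and 46.6 in KD-Nap1l2, 88.9 and 85.0 in NC-7d and 79.4 and 91.6 in KD-Nap1l2-7d. The groups at 0 and 7 days were clearly apart, with a 1.71-fold rise over both cell kinds (edgeR adjusted p = 0.00211), 1.58-fold in NC and 1.84-fold in the cells labelled KD-Nap1l2. *Cd63*, the member with the highest mean FPKM over the 8 libraries (1269), had 1306 and 1239 CPM in NC, 984.9 and 986.8 in KD-Nap1l2, 1241 and 1075 in NC-7d and 945.2 and 1177 in KD-Nap1l2-7d, with a log2 fold change of -0.01 ± 0.11 over the 7 days. The libraries at 0 and 7 days overlapped.
*Lamp2* makes transcripts with different last exons. The transcript at chrX:38419507-38456454 held 75.4% to 84.6% of the *Lamp2* counts and that at chrX:38405062-38456454 held 14.7% to 23.9%. The share of the first was 79.2% ± 2.06 at 7 days and 80.2% ± 3.89 at 0 days (SD, n = 4 each, exact permutation test, two-sided, p = 0.714, where the smallest possible was 0.0286), a difference of -1.07 percentage points within the spread of the libraries.

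Of the proton pump, *Atp6v0d1*, a subunit of its membrane sector, had 167.1 and 174.1 CPM in NC, 187.6 and 156.5 in KD-Nap1l2, 275.1 and 251.3 in NC-7d and 240.2 and 269.8 in KD-Nap1l2-7d. The libraries at 7 days lay above all at 0 days, and the rise was 1.54-fold in NC (edgeR adjusted p = 0.0351) and 1.48-fold in the cells labelled KD-Nap1l2 (adjusted p = 0.0359). *Atp6v1h*, of the cytosolic sector, rose in the latter cells and over both kinds together. *Atp6ap1*, an accessory subunit, had 352.2 and 377.2 CPM in NC, 257.1 and 361.7 in KD-Nap1l2, 314.7 and 311.9 in NC-7d and 297.5 and 341.6 in KD-Nap1l2-7d, with overlap between 0 and 7 days and a log2 fold change of -0.09 ± 0.13.

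Of the 2 transcription factors *Tfeb* fell and *Tfe3* was not called. *Tfeb* had 27.1 and 22.7 CPM in NC, 17.6 and 20.4 in KD-Nap1l2, 13.4 and 17.1 in NC-7d and 14.4 and 15.2 in KD-Nap1l2-7d. All 4 libraries at 7 days lay below all 4 at 0 days, the highest at 7 days close to the lowest at 0 days, and the log2 fold change over both cell kinds was -0.53 ± 0.13 (edgeR adjusted p = 0.0194). This call was lost without NC replicate 1, NC-7d replicate 1 or either KD-Nap1l2-7d library, with edgeR adjusted p from 0.0508 to 0.0823 and log2 fold changes from -0.45 to -0.55. *Tfe3* had 70.2 and 70.8 CPM in NC, 82.5 and 90.0 in KD-Nap1l2, 91.5 and 75.9 in NC-7d and 95.2 and 102.2 in KD-Nap1l2-7d. Libraries at 0 and 7 days overlapped across the cell kinds but not within either, and the log2 fold change was 0.22 ± 0.09 (edgeR adjusted p = 0.116). RNA levels do not show where these proteins are in the cell. The 8 tested genes with GTCACGTG in their promoter window had 5 rises and 0 falls over the 7 days and a median log2 fold change of 0.52, and the 21 tested genes with a window without it had 10 rises, 2 falls and the same median, 0.52.

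All 3 autophagy genes rose over both cell kinds. *Gabarapl1*, an ATG8 protein of the GABARAP branch, had 91.2 and 80.8 CPM in NC, 71.8 and 108.4 in KD-Nap1l2, 214.8 and 164.8 in NC-7d and 177.9 and 200.4 in KD-Nap1l2-7d. With no overlap between 0 and 7 days, it rose 2.21-fold in NC (edgeR adjusted p = 0.0208) and 2.10-fold in the cells labelled KD-Nap1l2 (adjusted p = 0.0193). *Map1lc3b*, which encodes LC3B, had 198.3 and 198.6 CPM in NC, 184.0 and 218.9 in KD-Nap1l2, 331.2 and 281.1 in NC-7d and 325.3 and 351.7 in KD-Nap1l2-7d.
These also did not overlap, with rises of 1.54-fold and 1.68-fold (edgeR adjusted p = 0.0397 and 0.0164). *Sqstm1*, the cargo receptor p62, had 694.4 and 682.0 CPM in NC, 578.1 and 686.9 in KD-Nap1l2, 1042 and 765.3 in NC-7d and 1434 and 1319 in KD-Nap1l2-7d. It rose 2.18-fold in the cells labelled KD-Nap1l2 (edgeR adjusted p = 0.009), while in NC the log2 fold change was 0.39 ± 0.18 (adjusted p = 0.23) and its NC-7d libraries were far apart.

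**Figure D3:**
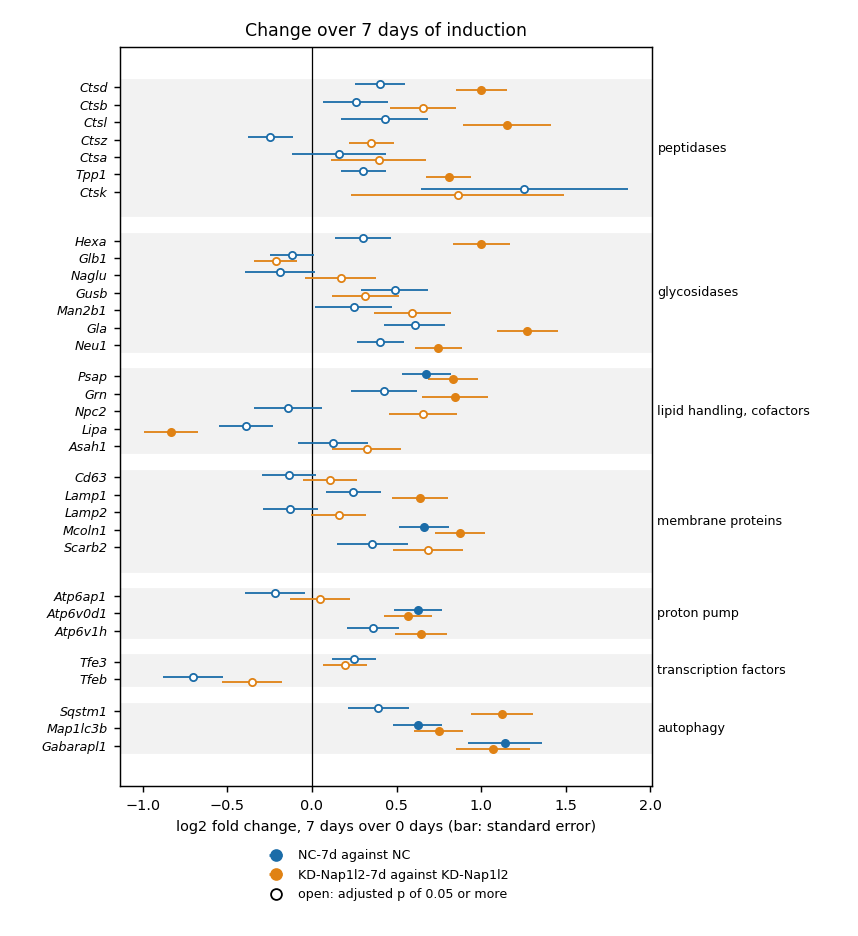
Log2 fold change of each tested gene over 7 days, with its standard error, in NC cells (blue) and in cells labelled KD-Nap1l2 (orange). Filled points have an edgeR adjusted p under 0.05, which 5 genes reached in NC and 16 in the cells labelled KD-Nap1l2, Lipa being the only filled point below 0.

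The wider pathway was read from 6 further lists with 138 genes, 136 of them tested, of which 44 rose and 2 fell over both cell kinds, where 12.8% of all genes rose and 12.7% fell. Of the 15 other proton pump subunits 7 rose and 0 fell, with a median log2 fold change of 0.38. Of 38 other autophagy genes 13 rose and 1 fell (median 0.25), and of 20 genes of nutrient sensing at the lysosome 9 rose and 0 fell (0.33). Other membrane proteins had 6 rises among 18 (0.17) and enzyme sorting 2 among 12 (0.22), the list nearest to the share over all genes. The other hydrolases had 7 rises and 1 fall among 33, with a median of -0.01, the same as over all genes. No test compared the lists.
Among single genes of these lists, *Atg12*, the ubiquitin-like conjugate of autophagosome formation, had 86.1 and 71.5 CPM in NC, 82.3 and 87.8 in KD-Nap1l2, 173.9 and 180.4 in NC-7d and 185.7 and 207.7 in KD-Nap1l2-7d. Its log2 fold changes were 1.17 ± 0.14 in NC and 1.21 ± 0.14 in the cells labelled KD-Nap1l2 (edgeR adjusted p = 0.00378 and 0.00235). *Fnip2*, a partner of folliculin, *Tecpr1*, which tethers autophagosomes to lysosomes, and *Sort1*, the sorting receptor sortilin, rose in both too, with log2 fold changes of 1.06, 1.05 and 1.10 in NC and 1.42, 1.41 and 1.29 in the cells labelled KD-Nap1l2.

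**Figure D4:**
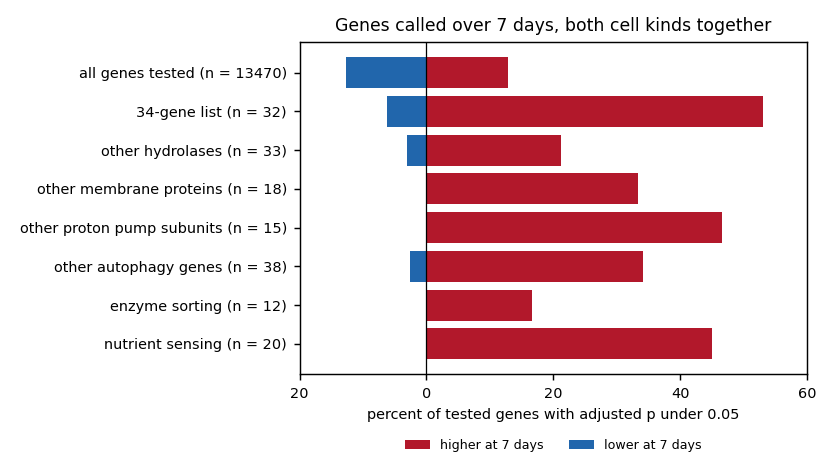
Percent of tested genes with an edgeR adjusted p under 0.05 over 7 days with both cell kinds together, higher to the right and lower to the left of 0, for all genes, the 34-gene list and the 6 wider lists. The 34-gene list and the other proton pump subunits have the longest bars to the right, and the bars of enzyme sorting and the other hydrolases are the shortest of the lists.

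Before induction no member was called between KD-Nap1l2 and NC, in either direction, by edgeR (background 0.0223% higher and 0.0594% lower). At an unadjusted p under 0.05, the libraries labelled KD-Nap1l2 had 0 members higher and 11 lower, against 7.02% and 6.73% of all genes, and DESeq2's Wald test called 0 higher and 6 lower at an adjusted p under 0.05, against 1.44% and 1.99%. These 6 were *Psap*, *Tpp1*, *Ctsz*, *Hexa*, *Npc2* and *Ctsd*. The members' median log2 fold change was -0.31, against 0.01 over all genes, and 25 of 32 had a value below 0, against 48.5%. In 19 of 32 both KD-Nap1l2 libraries lay below both NC libraries, against 21.2%, and in 2 they lay above, against 22.0%.

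The values furthest below 0 were those of *Npc2* and *Tpp1*, given per library above, with log2 fold changes of -0.78 ± 0.20 and -0.64 ± 0.13 (edgeR adjusted p = 0.165 and 0.11). Those furthest above 0 were *Lipa* and *Tfe3*, with 0.34 ± 0.16 and 0.29 ± 0.13. By role, the median was -0.48 for the peptidases, -0.32 for the glycosidases, -0.44 for lipid handling and enzyme support and -0.37 for the membrane proteins. It was -0.05 for the proton pump and 0.02 for the autophagy genes, whose libraries overlapped between NC and KD-Nap1l2. The 136 tested genes of the wider lists had a median of -0.11.

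After 7 days no such offset was seen in the members as a whole. Between KD-Nap1l2-7d and NC-7d the edgeR and DESeq2 tests each called 0 members in either direction (background 0.0% in edgeR, 0.275% higher and 0.334% lower in DESeq2), 2 were higher and 0 lower at an unadjusted p under 0.05 (3.72% and 4.13% of all genes), and the median log2 fold change was -0.01, as over all genes. The 2 were *Sqstm1* and *Ctsl*, with log2 fold changes of 0.61 ± 0.18 and 0.76 ± 0.26 (edgeR adjusted p = 0.519 and 0.544), and for each both KD-Nap1l2-7d libraries lay above both NC-7d libraries. The lowest values were those of *Gusb* and *Ctsk*, -0.39 ± 0.20 and -0.33 ± 0.56.

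Whether the induction differed between the cell kinds was tested as the difference of the log2 fold changes, which uses the same libraries as the comparisons above. Neither edgeR nor DESeq2 called any member, 0 higher and 0 lower, against 0.0% of all genes in edgeR and 0.483% and 0.238% in DESeq2, and at an unadjusted p under 0.05 7 members were higher and 0 lower in the cells labelled KD-Nap1l2, against 3.5% and 3.54%. These 7 were *Gla*, *Tpp1*, *Sqstm1*, *Ctsz*, *Hexa*, *Npc2* and *Ctsd*, with differences from 0.51 to 0.80. The members' median difference was 0.31, against -0.02 over all genes, and 25 of 32 had a difference above 0, against 47.8%. Since no member was called here, the larger number of members called in the cells labelled KD-Nap1l2 was not shown to be a larger response. Of the 7, all but *Sqstm1* and *Gla* had lower values in KD-Nap1l2 than in NC at 0 days at an unadjusted p under 0.05.

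**Figure D5:**
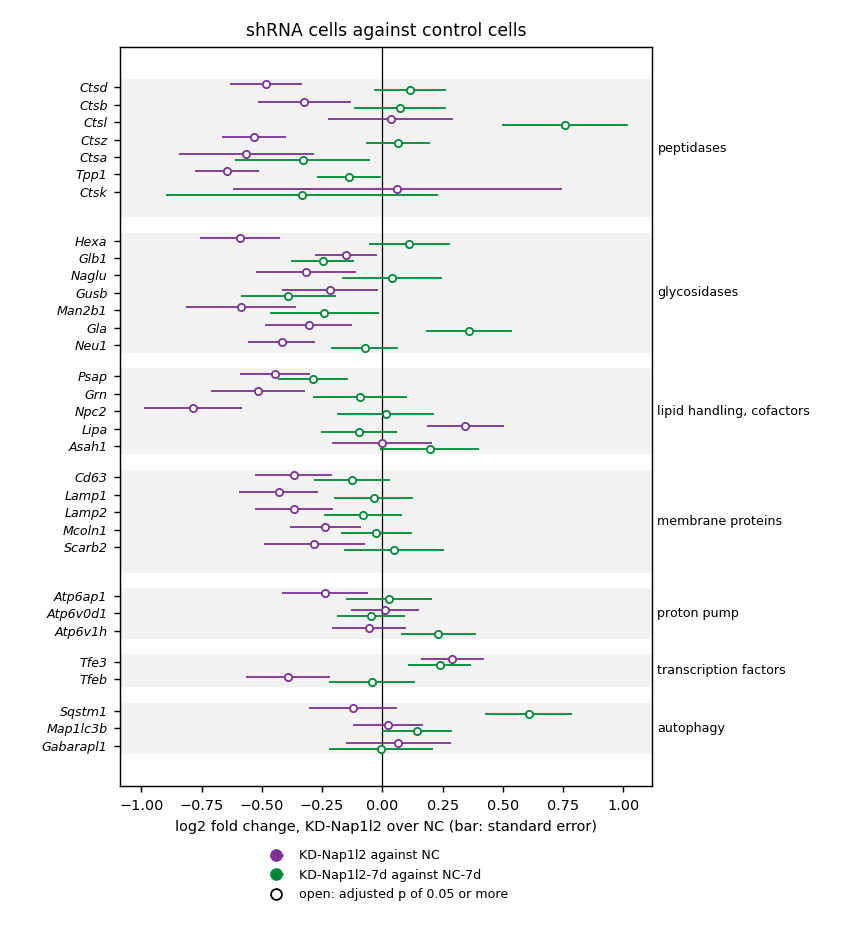
Log2 fold change of each tested gene between cells labelled KD-Nap1l2 and NC cells, with its standard error, before induction (purple) and after 7 days (green). All points are open, since no adjusted p was under 0.05 in edgeR, and most purple points lie below 0 while the green points lie around 0.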

How the data were processed

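RNA-seq of 8 libraries of C3H10T1/2 cells, in 4 groups of 2, was analysed. Each library came with estimated counts for genes and transcripts as deposited by the authors, with no normalization. In 40.4% of genes some count was not whole (tolerance 0.01), so reads of similar genes may have been split. Among the members this held in all 8 libraries for *Gla*, *Hexa*, *Neu1*, *Glb1*, *Ctsl*, *Ctsb*, *Ctsa* and *Asah1*. It held in some libraries for *Atp6ap1*, *Scarb2*, *Lamp2* and *Cln3*. The authors also deposited FPKM values, scaled by them to length and library size, a unit read from the values. The submitters' processing notes name BWA, Bowtie2, RSEM and GRCm38.p6. The authors' tables of comparisons (fold changes, p-values) were not used.

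Counts were rounded, scaled by TMM, filtered with filterByExpr and fitted over all 8 libraries by edgeR 4.0.16 (R 4.3.3). Genes with a Benjamini-Hochberg adjusted p under 0.05 over all genes tested were called. A standard error is the log2 fold change over the square root of F. Library totals were 17420284 to 19427359, and 3 counts were taken as the floor, for counting error only. Alternatives were DESeq2 1.42.0, RLE factors, no filter, at least 10 counts in every library, only the libraries compared, a replicate block, limma 3.58.1 on log2(FPKM + 1) and log2(FPKM + 0.1), and leaving out each library. The tests were checked on simulated data with 200 changed genes. There edgeR made 11 false calls and DESeq2 37, and in a comparison with no change they made 1 and 22. Of the 4-fold changes edgeR called 97, and of the equally many 2-fold changes 55. Promoters were read with Python 3.11.15.

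The members and lists were chosen with earlier results of these data known. Values per library are given for *Nap1l2*, *Glb1*, *Tfeb*, *Tfe3*, the 12 called members with the smallest adjusted p, the most abundant member of each role, and the 2 largest rises and falls of each comparison of 2 groups. Of the wider lists, the 3 called genes with the largest change per induction are named. Other members named with a test, and *Lamp2*, were chosen after their values were seen.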

Additional observations from a re-analysis of the deposited data

Results flagged for a closer look

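In 3 genes the groups moved in opposite directions with no overlap between their libraries, but the test of the difference did not pass. *Ctsz*, a cysteine carboxypeptidase, had log2 fold changes over 7 days of -0.25 in NC and 0.35 in the cells labelled KD-Nap1l2, a difference of 0.60 (edgeR quasi-likelihood test, adjusted p = 0.597). It had 314.9 and 285.1 CPM in NC, 256.7 and 249.5 in NC-7d, 203.8 and 211.2 in KD-Nap1l2 and 245.4 and 284.0 in KD-Nap1l2-7d. *Gla* had log2 fold changes between KD-Nap1l2 and NC of -0.31 at 0 days and 0.36 at 7 days, a difference of 0.67 (edgeR adjusted p = 0.68). *Hexa* had -0.59 and 0.11, a difference of 0.70 (edgeR adjusted p = 0.651). With 2 libraries in each group, separation without overlap is common, as the 21.2% of all genes lying lower and 22.0% lying higher in KD-Nap1l2 before induction show.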

How the results depend on the processing

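The number of members called over 7 days in NC, 5 by edgeR over all 8 libraries, was 1 when only the 4 libraries compared were fitted. The replicate numbers were not shown to pair the libraries (correlations of deviations from -0.0612 to 0.104), and with the replicate number as a block the count in NC was 2, while the block moved no other count of members by over 1.5 times. Between KD-Nap1l2 and NC before induction DESeq2 called 6 members in place of 0. Of the single values (log2 fold changes of named genes and the *Lamp2* share) under the settings other than leaving out a library, 324 kept their direction and side of the threshold, 8 no longer passed and 4 newly passed. With each library left out in turn, 294 kept both, 62 no longer passed, 3 newly passed and 1 reversed, and over both cell kinds the named genes that lost their call were *Tfeb* and *Ctsl*. Leaving out each library in turn gave 0 to 6 members called in NC, 1 to 19 in the cells labelled KD-Nap1l2 and 12 to 19 over both kinds, and 0 in the other 3 comparisons, where the library left alone in its group is assumed to vary like the others. The named genes counted here are those with values per library. *Ctsb*, *Grn*, *Lamp1*, *Scarb2* and *Atp6v1h*, named above without such values, also lost their call over both cell kinds under some alternative. Fewer libraries enter the fits that leave out a library. The members' median log2 fold change then ran from 0.15 to 0.38 in NC and from 0.55 to 0.75 in the cells labelled KD-Nap1l2, and from -0.37 to -0.22 between KD-Nap1l2 and NC. The difference in the share of the main *Lamp2* transcript turned to 0.389 percentage points without KD-Nap1l2 replicate 1 and was -2.67 without replicate 2, and the cause was not tested. Counts of 10 or fewer in every library, as for *Ctss* and *Cln3*, allow no statement on a change.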
